A study of Danio rerio with 57 samples.

Results

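In 50 windows of 1 Mb, chosen by their covered share in the 4 h post fertilisation (hpf) list, the repressive histone mark H3K9me3 covered a mean of 2.21% of the sequence at 2 hpf and 22.3% at 4 hpf. They were taken from 1237 interior windows. Chromosomes 1 to 25 of the zebrafish were cut from position 0, and windows touching the outer 1 Mb of a chromosome and chromosome 4 from 28 Mb were left out. A region of a deposited list was counted as a member where its midpoint lay in one of the 50 windows, which gave 15653 of the 190029 regions in the 6 lists. Covered share is the percentage of a window's bases that lie under merged regions of one list. Because the 4 hpf list picked the windows, their values at 4 hpf and their growth up to it are given as description, and the other 1187 interior windows are set beside them for scale.

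H3K9me3, trimethylated lysine 9 of histone H3, is the hallmark of constitutive heterochromatin, where it silences transposons and tandem repeats and is often dense around centromeres. Methyltransferases of the SUV39H and SETDB1 families place it, and HP1 proteins bind it and can recruit more methyltransferase, so that a marked domain can widen along the chromosome. The hours sampled here cover the cleavage and blastula stages, in which the zebrafish embryo passes from maternal control to transcription of its own genome.

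The mark was mapped by CUT&RUN, in which an antibody tethers a nuclease that cuts out the DNA around marked nucleosomes. Per the labels, whole AB-strain embryos were used, with an E. coli DNA spike-in. Antibody 8898 from Abcam was used on 2 libraries at 2 hpf and on 3 at each of 2.5, 3, 3.5, 4 and 4.5 hpf, the 10 IgG libraries being the antibody control. A confirmation experiment makes up the other 30 of the 57 libraries, and IgG and confirmation libraries were not analysed here. One list was deposited per time point and none states which libraries entered it, so there are no replicates, no spread between embryos and no test, and the read depth behind the lists is unknown. A wider share can mean more embryos or cells with the mark, more of it per cell, or easier detection, and these cannot be told apart. The lists hold 7516, 21196, 32756, 43657, 51200 and 33704 regions from 2 to 4.5 hpf. In the change of coverage from 4 to 4.5 hpf, chromosomes 1 and 10 to 14 stand apart from the other 19, so the main results that use that list are also given without them. In the unchosen interior windows the summed coverage became 1.12 times as large on these chromosomes and 0.918 times on the 19. Not every window of the group rose. On chromosome 14 the window from 15000001 to 16000000 fell from 16.1 to 1.45%, and that from 28000001 to 29000000 from 5.39 to 3.54%. The group is made of whole chromosomes, and where along them the change lies was not tested. No source used here names the assembly, so positions are those of the lists, and no genes or repeats were assigned to them.

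All 50 windows were covered more in each successive list from 2 to 4 hpf. So were nearly all of the others, with 96.5, 98.8, 98.3 and 98.0% of the 1187 higher in the 4 steps. On the way their mean covered share was 7.48, 12.5 and 18.4% (2.5, 3 and 3.5 hpf), and after 4 hpf it stood at 21.8% (20.8% without chromosomes 1 and 10 to 14). In the other interior windows the means were 0.357, 1.24, 2.60, 4.21, 5.33 and 5.14% from 2 to 4.5 hpf. The 50 windows were thus already ahead at 2 hpf, at 6.17 times the covered share of the others, and the ratio was 6.01, 4.82, 4.37 and 4.18 in the next 4 lists. Its course up to 3 hpf depended on the regions used. With the best scored 50% of each list and with regions named primary, the 50 windows were also chosen again from those regions. At 2, 2.5 and 3 hpf the ratio was 3.76, 3.83 and 3.87 with the former and 4.09, 4.28 and 4.16 with the latter. For the same windows, with lists of equal size, it was 6.17, 7.26 and 6.13. In absolute terms the lead widened from 1.85 to 16.9 percentage points. On 4.04% of the interior length the 50 windows held 20.6% of its covered bases at 2 hpf and 15.0% at 4 hpf.

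**Figure D1:**
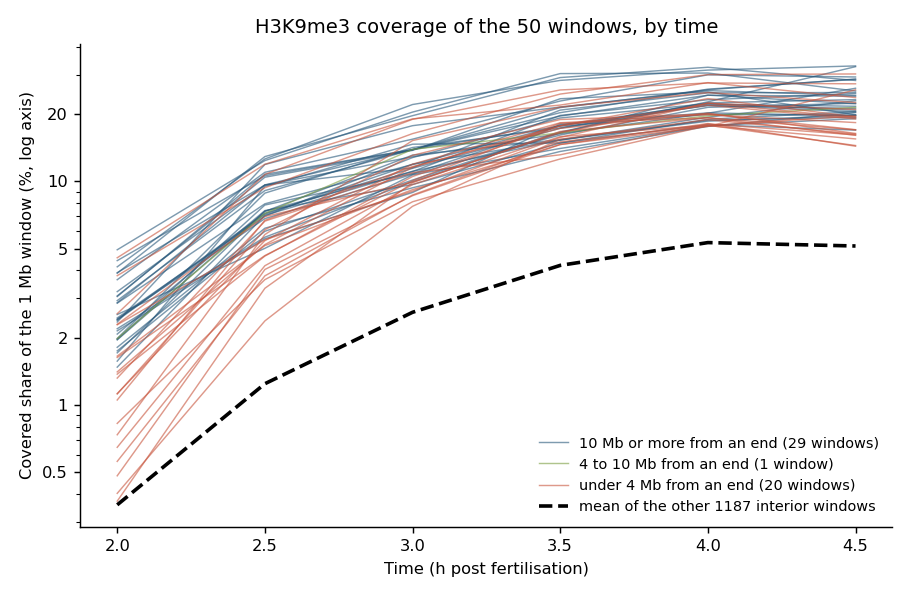
Covered share of each of the 50 windows (thin lines, log axis, percent of 1 Mb) in the 6 lists, coloured by distance from the nearest chromosome end, with the mean of the 1187 other interior windows dashed. The 50 windows start between 0.371 and 4.95% at 2 hpf and lie between 17.6 and 32.4% at 4 hpf, where the lower limit is set by the choice of windows; their SD is 1.14 points at 2 hpf and 4.02 at 4 hpf.

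The most covered window lay on chromosome 14 from 13000001 to 14000000 and was covered to 3.89, 12.9, 19.7, 29.2, 32.4 and 28.3% from 2 to 4.5 hpf. Next came chromosome 1 from 27000001 to 28000000, with 4.15, 12.6, 22.1, 28.3, 31.5 and 32.9%. Chromosome 2 from 14000001 to 15000000 had the highest share of all at 2 hpf and went through 4.95, 12.4, 20.4, 30.4, 30.6 and 25.4%. All 3 were among the first 6 by coverage at 2 hpf, and the last of them had nearly the same covered share at 3.5 and 4 hpf. A 39.9 kb region of that window at 3.5 hpf had no coverage at 4 hpf. There a loss cannot be told apart from a region left out of the list, as set out below. Of the remaining windows in the first 10, chromosome 3 gave those from 2000001 to 3000000 and from 3000001 to 4000000. They were covered to 3.79 and 4.56% at 2 hpf and to 30.1 and 27.7% at 4 hpf. Chromosome 18 from 32000001 to 33000000 went from 3.63 to 29.995%, and chromosome 22 from 3000001 to 4000000 from 2.56 to 27.6%. The same stretch from 12000001 to 13000000 on chromosomes 10, 20 and 24 went from 4.42 to 25.9%, from 3.06 to 25.7% and from 2.35 to 25.5%. These 10 windows ranked between 1 and 28 among all interior windows at 2 hpf.

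At the lower limit the covered shares at 4 hpf ran on without a break. Ranks 46 to 50 were chromosome 23 from 2000001 to 3000000 with 17.78%, chromosome 22 from 1000001 to 2000000 with 17.77%, chromosome 23 from 16000001 to 17000000 with 17.74%, and chromosome 12 from 15000001 to 16000000 and chromosome 13 from 49000001 to 50000000, both with 17.63%. Ranks 51 to 55, just outside, were chromosome 25 from 35000001 to 36000000 with 17.47%, chromosome 20 from 2000001 to 3000000 with 17.45%, chromosome 3 from 4000001 to 5000000 with 17.44%, chromosome 18 from 33000001 to 34000000 with 17.10% and chromosome 5 from 2000001 to 3000000 with 16.99%. Of these 5 windows just outside, those of chromosomes 20, 3 and 18 directly adjoin a chosen window.

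Growth from 2 to 4 hpf was 10.1-fold over the summed windows and 14.9-fold over the others. Single windows grew between 5.85-fold and 52.0-fold. The smallest folds belonged to windows that began high: chromosome 10 from 12000001 to 13000000, chromosome 3 from 3000001 to 4000000 (6.08-fold) and chromosome 2 from 14000001 to 15000000 (6.18-fold). The largest belonged to the 3 windows lowest at 2 hpf. Chromosome 20 from 1000001 to 2000000 was covered to 0.371, 3.33, 9.87, 16.7, 19.3 and 17.0% from 2 to 4.5 hpf. Chromosome 3 from 59000001 to 60000000 was covered to 0.402, 2.38, 7.74, 15.5, 18.9 and 16.3%, a 47.0-fold growth to 4 hpf. Chromosome 16 from 2000001 to 3000000 was covered to 0.482, 4.04, 8.64, 14.6, 18.2 and 14.4%, or 37.7-fold. At 2 hpf these 3 windows were close to the average of the other interior windows, and by 3.5 hpf each had at least 14.6% of its sequence under the mark.

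A fold of at least 8 from 2 to 3 hpf was reached by 13 of the 50 windows, against a background of 46.7% of the 1154 interior windows covered at 2 hpf. At least 16-fold from 2 to 4 hpf was reached by 11 of the 50 windows, beside 53.3% of those 1154 windows, and since this contrast contains the list that chose the windows nothing is read from it. The step with the largest gain in percentage points was 2 to 2.5 hpf in 13 windows, 2.5 to 3 hpf in 10, 3 to 3.5 hpf in 25 and 3.5 to 4 hpf in 2. The first step was the largest in 26% of the 50 windows and in 4.47% of the others. The 4 steps compared run up to the list that chose the windows, so nothing is read from this difference either. Both sets had their largest gain most often between 3 and 3.5 hpf.

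All but 1 of the 50 windows lay in one of 2 positions along the chromosomes, a split made after their values were seen. Of the 140 interior windows centred less than 4 Mb from a chromosome end, 20 were chosen (14.3%), and of the 803 centred 10 Mb or more from an end, 29 were chosen (3.61%). Between these distances 1 of 294 was chosen, on chromosome 3 from 6000001 to 7000000. The near-end windows began lower and multiplied more. Their mean covered share was 1.51, 5.81, 11.5, 17.6, 21.3 and 19.5% from 2 to 4.5 hpf, and in the deep windows it was 2.69, 8.64, 13.2, 19.03, 23.0 and 23.5%. Without chromosomes 1 and 10 to 14 the deep mean went the other way after 4 hpf, from 22.6 to 22.2%. The fold from 2 to 4 hpf was 14.1 near the ends, with single windows between 6.08 and 52.0, and 8.55 in the deep windows, with single windows between 5.85 and 13.6. Because all 50 windows had to reach 17.6% at 4 hpf, the fold mostly restates the level at 2 hpf. Among the other interior windows the fold was 18.0 near the ends, 17.5 between 4 and 10 Mb and 12.9 in the deep windows, so there the deep windows were low and the outer bands alike. Over the 50 windows Spearman's rho between distance from the end and fold was -0.505, and between distance and the share at 2 hpf it was 0.502. Over the 1104 other windows covered at 2 hpf these were -0.190 and -0.282. Neighbouring windows and the common lists link these points, and the values are a description.

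**Figure D2:**
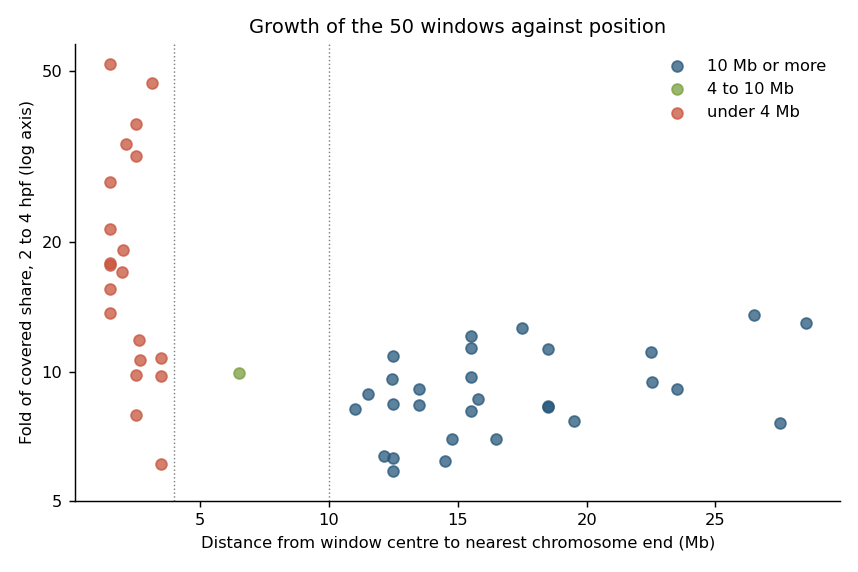
Fold of covered share from 2 to 4 hpf (log axis) against the distance from a window's centre to the nearest chromosome end in Mb, one point for each of the 50 windows. Folds above 13.6 occur only among windows under 4 Mb from an end, and the 29 windows at 10 Mb or more lie between 5.85 and 13.6.

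Near-end and deep windows also differed in how the mark was laid out. Near the ends there were 14.95 regions per window at 2 hpf and 85.2 at 4 hpf, with a median width of 1529 bp at 4 hpf. Deep windows went from 23.9 to 61.4 regions per window, with a median width of 2240 bp. At similar covered shares, the near-end windows thus held more and narrower regions. The outer 1 Mb of the chromosomes, which the choice left out, went from 1.06 to 14.1%, a 13.3-fold growth that lies near that of the near-end windows. Chromosome 4 from 28 Mb to its outer 1 Mb, also left out, went from 0.664 to 14.7%, or 22.2-fold.

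Adjacent windows were common among the 50. They formed 36 separate stretches, of which 24 were single windows, 10 were pairs and 2 were triples, so that 26 of the 50 windows (52%) had another one directly beside them. Of the 90 interior places next to a chosen window, 28 (31.1%) were chosen windows themselves, while 4.04% of all interior windows were chosen. Every one of the 25 chromosomes held at least 1 of the 50 windows. Chromosome 3 held the most, 7, and chromosome 16 held 4.

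Both triples began at the first allowed window of a chromosome. On chromosome 3 the windows from 1000001 to 4000000 had 1.32, 3.79 and 4.56% at 2 hpf, in order away from the end, and 18.1, 30.1 and 27.7% at 4 hpf. On chromosome 7 the windows from 1000001 to 4000000 had 1.41, 2.28 and 2.30% at 2 hpf and 21.9, 22.4 and 22.4% at 4 hpf. In each triple the window closest to the end was the lowest at 2 hpf, and it grew most, 13.7-fold on chromosome 3 and 15.6-fold on chromosome 7. Of the 49 outermost allowed windows, 10 were chosen. Deep pairs lay on chromosome 1 from 27000001 to 29000000, chromosome 2 from 13000001 to 15000000, chromosome 6 from 22000001 to 24000000, chromosome 8 from 38000001 to 40000000, chromosome 14 from 12000001 to 14000000, chromosome 18 from 31000001 to 33000000 and chromosome 19 from 17000001 to 19000000. Their mean covered share at 4 hpf ran from 18.9% on chromosome 8 to 27.1% on chromosome 1.

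Single regions bridged the border between 2 chosen windows in few places. On chromosome 14 a region lay over the border at 13000000 from 3 hpf on and measured 15072, 26945, 34731 and 34813 bp from 3 to 4.5 hpf. On chromosome 3 the border at 3000000 was covered by regions of 7019, 7506, 15503 and 15453 bp in the same lists. On chromosome 8 the region over 39000000 measured 1838, 4345 and 5339 bp from 3 to 4 hpf and 35143 bp at 4.5 hpf. On chromosome 2 the border was covered at 2 and 2.5 hpf only. No region lay over any of the other 10 such borders in any list. A border is 1 base position, so this says little of whether adjacent windows form one block.

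Coverage of the unchosen windows declined with distance from the 50 windows over several Mb. At 4 hpf the mean was 22.3% in the 50 windows themselves. In unchosen windows it was 10.3% at 1 window away, 8.80% at 2 away, 7.67% at 3 away and 7.06% at 4 away. The mean of all other interior windows was 5.33%. Chosen windows were left out at each of these distances, so the drop right beside the 50 is partly set by the choice. Relative to the other windows, the windows 1 away had 2.85, 2.05 and 1.93 times the coverage at 2, 3 and 4 hpf. The high stretches thus had shoulders in the 2 hpf list already. Of the 61 windows that directly adjoined a chosen one without being chosen, 17 were among the 100 most covered at 4 hpf and 53 lay above the median of the other windows. Their median was 10.8%, against 4.07% in the 1126 interior windows further away.

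**Figure D3:**
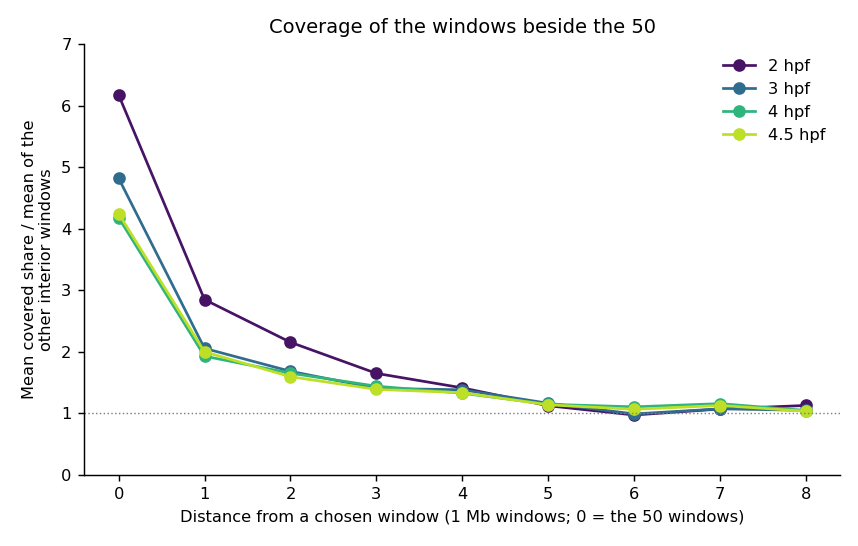
Mean covered share by distance from the 50 windows, counted in 1 Mb windows, divided by the mean of the 1187 other interior windows in the same list, for 4 of the lists. Away from the 50, only unchosen windows are averaged. The ratio at 2 hpf falls from 6.17 in the windows to 2.85 beside them and to 1.12 at 5 windows away, and the 4 hpf line runs lower over the first windows, from 4.18 to 1.93.

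Within a window the coverage was not set by one block, though how far it was spread out differed between windows. When each window was cut into 10 bins of 100 kb, a median of 8 bins were covered to at least 10% at 4 hpf, and in the other interior windows the median was 1 bin. The 3 fullest bins held a median of 50.3% of a window's covered length, against 62.8% in the others. Both comparisons use the 4 hpf list that chose the windows, so nothing is read from the difference to the others.

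Growth came first from more regions and then from wider ones. The 50 windows held 1010, 2480, 2960, 3395, 3542 and 2266 regions from 2 to 4.5 hpf, or 20.2 per window at 2 hpf and 70.8 at 4 hpf. Median region width was 816.5, 878, 1239.5, 1662, 1782 and 3245.5 bp. In the other interior windows there were 4.29 regions per window at 2 hpf and 32.7 at 4 hpf, with median widths of 625 and 966 bp. The excess in number therefore shrank from 4.70 to 2.16 times between 2 and 4 hpf, while the excess in median width grew from 1.31 to 1.84 times and reached 2.06 times at 4.5 hpf, with or without chromosomes 1 and 10 to 14. Regions of at least 10 kb numbered 0, 8, 36, 90, 179 and 216 in the 50 windows. Without those chromosomes there were 135 at 4 hpf and 156 at 4.5 hpf. At 4 hpf the 179 were 43.9% of all interior regions that wide, while the 50 windows held 8.35% of all interior regions and 15.0% of the covered bases. Wide regions add to the coverage by which the 4 hpf list chose the windows, so nothing is read from this share. At 4.5 hpf the 216 were 32.9% of all interior regions that wide, or 40.5% without those chromosomes. The deposited p-values of these wide member regions had medians between 0.965 and 0.985 from 2.5 to 4.5 hpf. In the narrower member regions of those lists the medians lay between 0.407 and 0.498. The fall in region number at 4.5 hpf came with wider regions and an almost unchanged covered share.

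**Figure D4:**
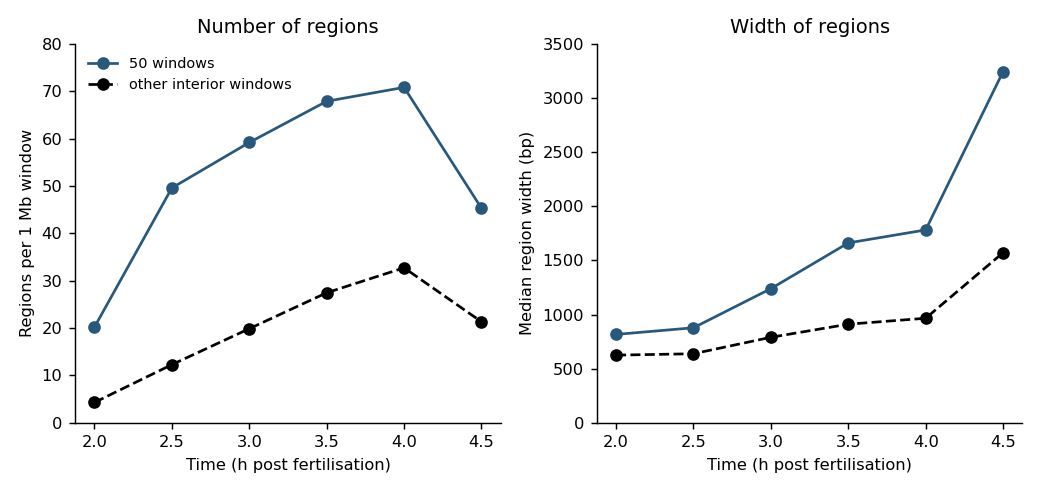
Regions per 1 Mb window (left) and median region width in bp (right) in the 6 lists, for the 50 windows (solid) and the other interior windows (dashed). Regions per window peak at 70.8 at 4 hpf in the 50 windows and fall to 45.3 at 4.5 hpf, while median width rises to 3245.5 bp.

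A growing share of the new coverage lay in regions that overlapped a region of the list before. Of the bases gained from 2 to 2.5 hpf in the 50 windows, 37.8% lay in regions that overlapped an earlier region by at least 1 bp, and in the 4 following steps this share was 61.1, 63.5, 70.1 and 85.1%. In the other interior windows the shares were lower at each step, at 25.6, 43.1, 47.5, 54.1 and 71.0%. Without chromosomes 1 and 10 to 14 the last step gave 80.4 and 66.1%. Wider regions overlap others more readily, and so do regions in a window already more covered. How much of the rise over time, or of the difference to the other windows, comes from this was not tested. Regions that joined 2 or more earlier ones made up between 2.61 and 7.78% of later regions in the 50 windows and between 1.09 and 3.87% in the others. The higher end of both came from the last step, which without chromosomes 1 and 10 to 14 gave 5.68 and 2.37%.

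**Figure D5:**
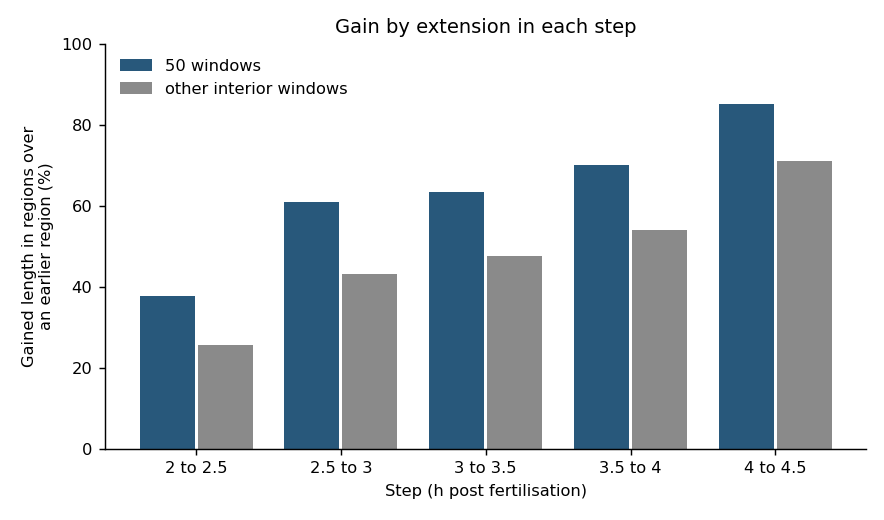
Share of the gained length in each step that lies in regions overlapping a region of the earlier list, for the 50 windows and the other interior windows. The bars for the 50 windows are the higher in all 5 steps, and rise from 37.8 to 85.1%.

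From one list to the next, most regions kept at least 1 bp of coverage. Of the 1010 regions at 2 hpf, 702 (69.5%) still had a region over them at 2.5 hpf, and the share that overlapped the next list was 72.2, 80.1, 86.7 and 66.3% for the later steps. In the other windows it was 57.6, 67.1, 74.5, 83.1 and 58.0%. Overlap is easier for wider regions and in windows more covered in the next list, as the 50 were. How much of the difference comes from this was not tested. Of the 2 hpf regions in the 50 windows, 501 (49.6%) were covered at least in part in every later list, and 41.3% of those elsewhere were. The later lists include the 4 hpf list that chose the windows, so nothing is read from this difference. Read backwards, 8.71, 29.2, 48.6 and 74.6% of the bases covered at 4 hpf had been covered in the lists of 2, 2.5, 3 and 3.5 hpf.

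The widest region at 2 hpf lay on chromosome 3 from 2900071 to 2907357 and measured 7287 bp. Regions over that place measured 9953, 23299, 19885, 25694 and 23122 bp in the later lists. On chromosome 7 the next ones, from 3921902 to 3927618 and from 3929609 to 3935185, were both under one region from 2.5 hpf on, which measured 15121 bp there and 18460 bp at 4 hpf. The fourth, on chromosome 23 from 16007854 to 16013322, was under regions of 9805, 28292, 12581 and 12621 bp from 2.5 to 4 hpf, the widest being that of 3 hpf. The fifth, on chromosome 1 from 27769626 to 27774576, was under regions of 5845, 15241 and 27538 bp in the lists of 2.5, 4 and 4.5 hpf. Each of these 5 sites had coverage in all 6 lists, under wider regions at 4 hpf than at 2 hpf.

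At 4 hpf the widest region lay on chromosome 14 from 13579130 to 13617145 and measured 38016 bp. The sequence under it was covered to 9.50, 46.7, 61.9 and 98.6% from 2 to 3.5 hpf, and to 0% at 4.5 hpf. The others were on chromosome 14 from 12976427 to 13011157 (34.7 kb), chromosome 7 from 3641575 to 3669865 (28.3 kb), chromosome 16 from 18402713 to 18430204 (27.5 kb) and chromosome 5 from 70597043 to 70623549 (26.5 kb). At 2 hpf these were covered to 4.85, 7.45, 30.6 and 4.31%, and at 4.5 hpf to 100, 87.2, 100 and 54.8%. All 5 thus grew from scattered narrower regions, and the first had no region over it in the last list.

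Member regions of at least 10 kb were mostly covered in the next list, with medians of 100, 99.3, 100 and 99.8% of their sequence from 2.5 hpf on. Those with no coverage in the next list were 1 of 8, 0 of 36, 2 of 90 and 6 of 179. For regions that wide in the other interior windows the medians were 99.7, 85.9, 99.97 and 99.5%. Of them 1 of 15, 6 of 75, 1 of 140 and 11 of 229 had no coverage in the next list. The widest members of the other lists include some of the member regions with no coverage in the next list. At 2.5 hpf the widest was chromosome 18 from 31566539 to 31582829 (16.3 kb), whose sequence was covered to 0% at 3 hpf, 34.8% at 4 hpf and 81.8% at 4.5 hpf. At 3 hpf it was chromosome 16 from 15659959 to 15693088 (33.1 kb), covered to 11.8% at 3.5 hpf and 53.3% at 4.5 hpf. At 3.5 hpf it was chromosome 2 from 14007061 to 14046962 (39.9 kb), covered to 28.4, 60.5 and 82.9% in the 3 earlier lists and to 0% at 4 and 4.5 hpf. At 4.5 hpf it was chromosome 1 from 28231454 to 28332648 (101 kb), whose sequence was covered to 7.82% at 2 hpf and 81.2% at 4 hpf. Without chromosomes 1 and 10 to 14 the widest at 4.5 hpf was on chromosome 22 from 3516955 to 3570038 (53.1 kb), covered to 98.2% at 4 hpf.

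Region names in each list carry a running number in order of position, and some numbers are skipped. Of the 9 member regions of at least 10 kb whose sequence had no coverage in the next list, 7 sat in a gap of that next list that holds a skipped number, the regions on chromosome 2 at 3.5 hpf, chromosome 18 at 2.5 hpf and chromosome 14 at 4 hpf among them. The loss of coverage at such places cannot be told apart from a region left out of the list. Gaps with a skipped number amount to 2.81 percentage points of the 50 windows at 4 hpf and 5.41 points at 4.5 hpf, which bounds what they could add to the means of 22.3 and 21.8%. The bound is looser at 2 hpf. There it is 1.04 points beside a mean of 2.21% in the 50 windows, and 1.18 points beside 0.357% in the others. The folds from 2 hpf and the ratio at 2 hpf are therefore less tightly bounded than the means at 4 and 4.5 hpf.

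With the full lists, the windows were largely the same ones in neighbouring lists. Of the 50, 32, 37, 40 and 44 were also among the 50 most covered interior windows from 2 to 3.5 hpf and 39 at 4.5 hpf, and 27 were among them in all 6 lists. With windows chosen again from regions named primary, 22, 28, 34, 64 and 50% were shared with these 5 lists. With the best scored 50% of each list it was 22, 28, 38, 66 and 68%. For the same windows with equal list sizes it was 64, 72, 68, 60 and 32%. Of the 18 windows that were among the first 50 at 2 hpf but not at 4 hpf in the full lists, 16 were 10 Mb or more from an end. So were 42 of all 50 windows most covered at 2 hpf, and 803 of all 1237 interior windows. On chromosome 14 the window from 28000001 to 29000000, picked out after its values were seen, went from rank 38 at 2 hpf to rank 499 at 4 hpf, with covered shares of 1.97 and 5.39%. The window on chromosome 20 from 1000001 to 2000000 moved from rank 432 to rank 36.

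From 4 to 4.5 hpf the summed coverage hardly changed, and 19 of the 50 windows (38%) were higher at 4.5 hpf, beside 36.1% of the 1187 others. On the 19 chromosomes that do not stand apart, 12 of 42 windows were higher, near the background of 24.6% of 947 interior windows, and the summed coverage was 0.944 of that at 4 hpf, beside 0.918 in the other windows there. On chromosomes 1 and 10 to 14, 7 of 8 windows were higher and the coverage was 1.16 times that at 4 hpf, beside 1.12 times in the other windows there. Of the other interior windows 429 of 1187 were higher over all chromosomes and 221 of 905 on the 19. Most of the other windows on chromosomes 1 and 10 to 14 were thus higher too, and nothing is read from the 7 of 8. These chromosomes were set apart on this same change, so the contrast between the groups restates that choice. The mean over all 50 windows fell by 0.426 points, less than the 5.41 points of gap with a skipped number at 4.5 hpf, so its direction is not settled. With regions of at least 1 kb, windows chosen again, it went from 20.9 to 21.5%. Of the near-end windows 3 of 20 were higher and of the deep windows 15 of 29, and without the 6 chromosomes the numbers were 2 of 19 and 9 of 22. Among the other interior windows 36.7% near the ends and 37.2% of the deep ones were higher, and 14.9 and 28.1% without the 6 chromosomes.

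The largest rises were on chromosome 1 from 28000001 to 29000000, by 9.92 points to 32.6%, chromosome 13 from 49000001 to 50000000, by 8.07 points to 25.7%, and chromosome 14 from 12000001 to 13000000, by 5.92 points to 26.1%. All 3 lie on the chromosomes that stand apart. On the other 19 the largest rises were on chromosome 20 from 12000001 to 13000000, by 3.01 points, chromosome 22 from 1000001 to 2000000, by 1.88 points, and chromosome 3 from 6000001 to 7000000, by 1.78 points. Coverage fell most on chromosome 25 from 26000001 to 27000000, where it fell by 5.27 points to 19.9%, and on chromosome 2 from 14000001 to 15000000, where it fell by 5.15 points. On chromosome 14 from 13000001 to 14000000 it fell by 4.13 points, and on chromosome 17 from 51000001 to 52000000, the next on the 19 chromosomes, it fell by 4.02 points.

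The 500 kb parts of the top window on chromosome 14 differed at 4.5 hpf. Its part from 13000001 to 13500000 went from 37.2% at 4 hpf to 51.0%, while its part from 13500001 to 14000000 went from 27.7% to 5.56%, with 24 and then 3 regions. A gap of 153.8 kb in the 4.5 hpf list, which lies over the 38016 bp region named above, holds a skipped number, so a region left out of the list cannot be told apart from a loss there. The part from 12500001 to 13000000 of the window before it went from 29.4 to 40.9%. The deposited signal, whose unit is unknown, also differed. Its median over regions went from 532.5 at 4 hpf to 3928.74 at 4.5 hpf in the part from 13000001. In the part from 13500001 it went from 288.9 to 725.49. In the parts from 12000001 and 12500001 it went from 477 to 3581.8 and from 174.4 to 2153.7. Whether the scale of the 4.5 hpf list changes there was not tested, so no local gain or loss is read from these shares. On the same chromosome the window from 15000001 to 16000000, not among the 50, went from 16.1 to 1.45%.

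The fold depended on how many regions a list holds. With each list reduced to as many of its best scored regions as the 2 hpf list has on these chromosomes, the same windows grew 1.86-fold from 2 to 4 hpf, 3.48-fold near the ends and 1.23-fold in the deep windows, and their covered share was 3.30 times that of the other windows at 4 hpf. Their mean share was then highest at 3 hpf, at 6.75%, and stood at 4.10% at 4 hpf. The member regions kept at 4 hpf were wider in the median, at 2897.5 bp against 1782 bp in the full list. The widest were not favoured, as the 179 member regions of at least 10 kb at 4 hpf carry a deposited p-value with a median of 0.979. They hold 23.8% of the summed length of member regions at 4 hpf. How much of the lower fold comes from them was not tested.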

How the data were processed

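The authors deposited one headerless list of H3K9me3 regions per time point. By their values, the deposited columns hold positions, a name, a score, a signal whose unit no source used here gives, and a p-value. The deposited score follows the p-value up to a cap of 1000. The deposited q-value column was not used. Per the submitters' processing notes, HOMER, bedtools, Picard, SAMtools, STAR and Trim Galore were used, with no role or version given. No region was filtered out.

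Regions of each list were merged and their covered bases counted per 1 Mb window with Python 3.11.15, numpy 2.4.6 and pandas 2.3.3. Chromosome length was the furthest region end in any list. The counting was tested on simulated data. With 1 pooled list per time point no statistical test was made. The windows and comparisons were chosen with earlier results of these data known. Windows named are the 10 most covered at 4 hpf, the longest runs, ranks 46 to 55, and the 3 most extreme each way at 2 hpf, in fold from 2 to 4 hpf and in change from 4 to 4.5 hpf, the last also without chromosomes 1 and 10 to 14. Regions named are the 5 widest at 2 and at 4 hpf and the widest of each other list. Anything else named was picked after its values were seen, the deep pairs, window borders and chromosome 14 parts included. Alternatives varied window size, start and number, the regions used, the chromosomes, the ranking list and list sizes. All of these except list sizes chose the windows again.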

Additional observations from a re-analysis of the deposited data

How the results depend on the processing

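Of 427 recomputed values, 349 stayed within 1.5 times the reported one. Courses over time did turn. With equal list sizes the covered share was highest at 3 hpf. With regions of at least 1 kb, windows chosen again, it went from 20.9% at 4 hpf to 21.5% at 4.5 hpf. The ratio to the other windows did not narrow from 2 to 3 hpf with the best scored 50% (3.76 and 3.87) or primary regions (4.09 and 4.16). In both the windows were chosen again. Growth was larger near the ends than in deep windows under every alternative run, and the share of windows with a neighbour among the chosen lay between 44 and 62%. Stretches per 50 Mb were 68 with 0.5 Mb windows and 19 with 2 Mb windows, as the sizes alone would shift them. Near-end growth under limits of 3 and 5 Mb, added after seeing the data, was 16.1-fold and 14.1-fold. No paired analysis was possible because each time point has 1 pooled list. Depth is unknown, so what it limits could not be assessed.

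Using fewer regions lowered covered shares and regions per Mb by construction. In the settings with primary regions, the best scored 50% and regions of at least 1 kb, the windows were also chosen again. How much of the other changes comes from this was not tested. With regions named primary the covered shares were 0.845, 2.21, 4.69, 7.21, 8.01 and 3.04% from 2 to 4.5 hpf, and the ratio to the other windows at 2 hpf was 4.09. Regions per Mb were 5.22, 8.96, 16.1, 26.8, 31.4 and 8.96, and median widths from 2 to 3 hpf were 1368, 1996 and 2341 bp. Of the 4 hpf bases 2.16, 6.78 and 21.0% were covered from 2 to 3 hpf, and 22, 28 and 34% of the windows were also most covered there and 50% at 4.5 hpf. Deep windows grew 4.38-fold.

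With the best scored 50% of each list the shares were 1.03, 3.61, 7.11, 9.10, 9.75 and 7.13%, and the ratios at 2 and 2.5 hpf were 3.76 and 3.83. Regions per Mb were 7.86, 22.5, 34.1, 41.6, 45.9 and 28.3. Earlier coverage from 2 to 3 hpf was 2.75, 13.2 and 31.9%, the windows also most covered 22, 28 and 38%, and deep growth 3.70-fold. With regions of at least 1 kb there were 7.98, 23.0, 33.7 and 44.7 regions per Mb from 2 to 3.5 hpf, with median widths of 1612, 1979, 2366, 2751 and 3033 bp from 2 to 4 hpf, and near-end windows grew 21.4-fold.

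With equal list sizes the shares were 6.75, 5.23, 4.10 and 3.25% from 3 to 4.5 hpf, the growth 1.86-fold (near-end 3.48-fold, deep 1.23-fold) and the ratio at 4.5 hpf 2.56. Regions per Mb were 22.7, 19.4, 15.4, 13.2 and 10.1 from 2.5 to 4.5 hpf, and median widths 1663, 2830, 3094 and 2897.5 bp from 2.5 to 4 hpf. Earlier coverage from 2.5 to 3.5 hpf was 13.2, 22.2 and 47.6%, and 32% of the windows were also most covered at 4.5 hpf.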

Other observations

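In the 50 windows 47.9% of the 2 hpf regions carried the word primary in their deposited names, against 28.8% in the other interior windows, and at 4 hpf the shares were 34.95 and 30.2%. None of the 179 member regions of at least 10 kb at 4 hpf and none of the 216 at 4.5 hpf was named primary. At 3 hpf 12 of 36 were. No source used here says what the authors meant by the word.

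Skipped numbers in the region names were more frequent per window in the 50 windows, which also held more regions. At 4 hpf there were 54 of them in the 50 windows, or 1.08 per window, and 0.286 per window elsewhere in the interior. Set beside region number, these were 54 with 3542 listed regions and 339 with 38853 elsewhere. At 2 hpf they were 8 with 1010 regions and 41 with 5098. The difference in region number was not taken out of the per-window values. Over whole lists 67, 286, 607, 529, 579 and 807 numbers were skipped from 2 to 4.5 hpf, between 0.884 and 2.34% of the numbers used.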
